A study of Homo sapiens with 6 samples.

Results

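The SRC family kinases SRC, YES1, FYN, LYN, LCK, FGR, FRK and BLK and their negative regulator CSK were followed in RNA-Seq libraries of HCT116, an established line of human colorectal carcinoma cells with wild-type p53 and mutated CTNNB1. The 9 genes were taken by their symbols from the deposited gene table, in which each had 1 row among 27942 genes. The groups were 3 libraries from cells exposed to oxaliplatin at 0.5 µM for 24 h (OXA) and 3 from cells cultured without the drug (NT), and the labels name no vehicle for NT. All 6 came from the same line grown in RPMI with fetal bovine serum, so 1 line stands for colon cancer cells here, and nothing in the labels says whether the libraries of a group came from separate cultures. P-values then measure the spread between these libraries, which may be technical.

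SRC family kinases are membrane-anchored cytoplasmic tyrosine kinases that relay signals from integrins and receptor tyrosine kinases to adhesion and cytoskeletal proteins, and SRC is often activated in colon carcinoma. CSK phosphorylates a tyrosine close to their C-terminal end, the phosphorylated tail folds back onto the SH2 domain of the same molecule, and the kinase closes into an inactive form. Receptor-type and cytoplasmic tyrosine phosphatases remove that phosphate. SRC and YES1 also phosphorylate YAP and TAZ, the effectors of the Hippo pathway, and this favors their retention in the nucleus. The study blocked these kinases with Dasatinib, and the question put to the libraries is whether oxaliplatin itself changed the mRNA of the kinases, of CSK, or of the genes around them. Activity is set by phosphorylation, which these libraries do not measure. For SRC the study probed the phosphorylated form by western blot and reported no activation in this line at 24 h.

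The coding tails of SRC, YES1 and FYN carry the site on which CSK acts, and those of FRK and CSK are set beside them. The tails of LYN, LCK, FGR and BLK are not shown. Those shown are the last 24 codons of the coding sequence, stop codon included, of the canonical GENCODE transcript on GRCh38. Capitals mark the last in-frame tyrosine codon, TAC or TAT, where it lies within them. The tails are shown because those of SRC, YES1 and FYN hold the regulatory tyrosine. All of them also differ in base composition, a transcript property along which the libraries differed. Whether CSK acts on the marked codon of FRK was not tested. They lie at chr20:37403308-37403379 on the plus strand for SRC, at chr18:724424-724495 on the minus strand for YES1, at chr6:111661739-111661810 on the minus strand for FYN, at chr6:115942414-115942485 on the minus strand for FRK and at chr15:74802442-74802513 on the plus strand for CSK.
SRC: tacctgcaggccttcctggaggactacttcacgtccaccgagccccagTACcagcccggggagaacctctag
YES1: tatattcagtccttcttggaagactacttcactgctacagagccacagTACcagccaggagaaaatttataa
FYN: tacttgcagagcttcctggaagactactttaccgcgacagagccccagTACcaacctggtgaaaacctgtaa
FRK: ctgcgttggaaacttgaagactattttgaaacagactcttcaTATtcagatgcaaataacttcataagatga
CSK: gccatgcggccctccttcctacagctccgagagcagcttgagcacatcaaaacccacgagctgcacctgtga

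In SRC, YES1 and FYN the marked codon stands 6 codons before the stop, as codon 530 of 536, 537 of 543 and 531 of 537. In FRK, the most distant of the expressed kinases, it is codon 497 of 505. CSK has no tyrosine codon in these 24 codons, its last being codon 416 of 450. The SRC and YES1 tails share 54 of 72 bases, and 13 of the 18 differences fall on the third base of a codon. GC makes up 62.5% of the bases in the SRC tail, 59.7% in CSK, 50% in FYN, 40.3% in YES1 and 33.3% in FRK. The whole canonical transcripts were likewise GC-rich in CSK and SRC and GC-poor in FRK and YES1, with 63.4% GC in CSK, 59.3% in SRC, 48.4% in FYN, 45.6% in LYN, 38.9% in FRK and 37.4% in YES1, around a median of 48.8% over the genes tested. No 100-base window of a canonical transcript of the 9 genes, the length of 1 read, was found in a GENCODE transcript of another gene.

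Library totals lay between 32979521 and 40967880 counts. One library stood apart, NT library 1. Among the 2735 tested genes with the highest GC content, over 58.6%, the median deviation from the mean of the 6 libraries was -0.66 on the log2 scale in NT library 1 and between -0.091 and 0.34 in the others. Among the 2735 genes with the lowest GC content, under 40.9%, it was 0.17 in NT library 1 and between -0.14 and 0.037 in the others. SRC and CSK belong to the first group, YES1 and FRK to the second. Same-numbered NT and OXA libraries also deviated together, so a second fit, blocked on the library number, stands beside each result whose call it changes. Among 15 markers of T, B, NK and myeloid cells, the cells that express LCK, FGR and BLK, only CD68 and NCAM1 passed the filter on low counts. Neither was called without the block. With the block, which called 23.0% of all genes tested, NCAM1 was lower in OXA (edgeR adjusted p = 0.0327). CD3D and MS4A1 had 0 counts in every library, and PTPRC had at most 2. The summed level of the 15 was 7.59 to 8.95 CPM (counts scaled to the library size with TMM factors, as edgeR gives them) in NT and 7.42 to 8.78 in OXA. Of 9 colon epithelial markers, EPCAM, CDH1, KRT8 and KRT18 were abundant, whereas LGALS4 and CDH17 had at most 3 counts in any library. KRT20 and VIL1 were low, with means of 1.28 and 2.20 CPM in NT and 0.916 and 1.69 in OXA. CDX2 lay between, at 13.4 CPM in NT and 15.9 in OXA. The summed level of the 9 markers was 1982 to 2668 CPM in NT and 2818 to 3161 in OXA. KRT8, at 59.3% GC, had 27026 raw counts in NT library 1 and 46147 and 45981 in NT libraries 2 and 3. With the block, and its share of 23.0% over all genes, KRT8 and KRT18 were called higher and CDH1 lower, named here after their values were seen. The part of these shifts in the results on the kinases was not tested.

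YES1 was the most abundant kinase of the family and oxaliplatin left it, FYN, LYN and FRK within the spread between libraries. SRC was higher in every OXA library than in every NT library, and 1.353-fold higher in the fit, but did not pass the threshold in the fit without a block. CSK, its negative regulator, had a similar fold change with overlapping groups. LCK, FGR and BLK were at or near the detection limit. Of the 9 genes, 6 passed the filter on low counts, and 0 of these 6 had an adjusted p under 0.05 by edgeR's quasi-likelihood test, where 5.07% of the 13727 genes tested did. Without adjustment 0 of the 6 had a p under 0.05, where 2980 of the 13727 genes did, and DESeq2 and limma-voom also called 0. These fits left the library number out. With the block, edgeR called 1 of the 6, SRC (adjusted p of 0.0407), where 23.0% of all genes tested were called. Without the block, the median log2 fold change of the 6 was 0.013, beside 0.023 over all genes tested. In bulk RNA, a change in the number of cells that express a gene and a change in the RNA per cell cannot be told apart.

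**Figure D1:**
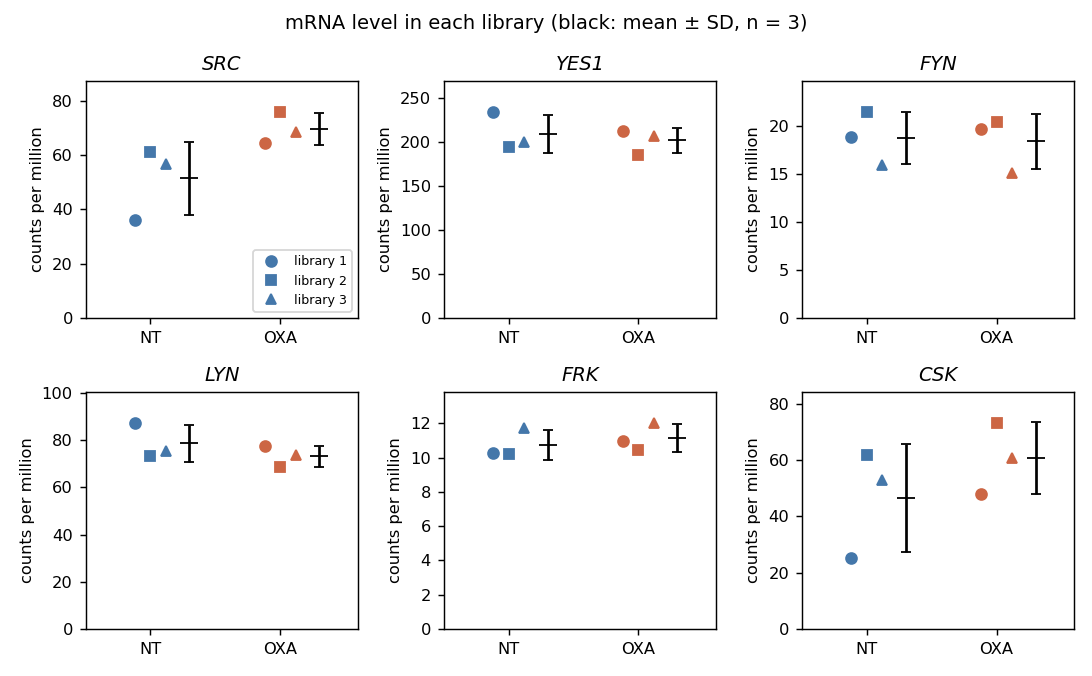
Level of the 6 members that passed the filter, in CPM (y axis, from 0) in each NT (blue) and OXA (orange) library, with the library number as the symbol and the mean ± SD (n = 3) in black. SRC and CSK are lowest in NT library 1, at 36.2 and 25.03, and only the SRC groups do not overlap.

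SRC (ENSG00000197122, chromosome 20 of GRCh38 from 37344685 to 37406050), the founding member, whose GC-rich tail is given above, had 1275, 2117 and 2244 raw counts in NT libraries 1 to 3 and 2146, 2504 and 2761 in OXA libraries 1 to 3. As CPM, scaled with the TMM factors, the values were 36.2, 61.1 and 56.9 in NT and 64.5, 75.9 and 68.4 in OXA. The lowest OXA value thus exceeded the highest NT value, and 28.9% of the genes tested had groups that did not overlap, in either direction, and NT library 1 lay far below the other 5. The means were 51.4 ± 13.3 CPM in NT and 69.6 ± 5.77 in OXA (SD, n = 3), a log2 fold change of 0.44 ± 0.19 SE (95% interval -0.0029 to 0.88, adjusted p of 0.234 by edgeR). Within same-numbered pairs OXA was higher in 3 of 3, by 0.83, 0.31 and 0.26 on the log2 scale. With the replicate number as a block, SRC passed the threshold with a log2 difference of 0.47 ± 0.12 SE (adjusted p of 0.0407 by edgeR), as did 23.0% of all genes tested. SRC was the only member called in that fit.

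The fold change of SRC depended on the library that stood apart. Without NT library 1, the log2 fold change was 0.24 (edgeR adjusted p = 0.182). In that library SRC deviated by -0.70 from its mean over the 6 libraries, beside a median of -0.49 for the 683 tested genes nearest to its GC content, in the bin around 59.4%. The GC-rich genes as a whole had a median log2 fold change of 0.17 with all libraries and of -0.062 without NT library 1. After each library's trends on transcript length and GC content had been taken out, a setting chosen after seeing the data, SRC was higher in OXA by 0.32 on the log2 scale, with an edgeR adjusted p of 0.0052 without the block and of 0.000344 with it. These fits called 22.4% and 45.4% of all genes tested. The part of GC content in the difference was not tested beyond these fits.

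CSK (ENSG00000103653, chromosome 15 of GRCh38 from 74782080 to 74803197), the kinase that closes the family, had 881, 2136 and 2082 raw counts without the drug, and its OXA counts were 1591, 2416 and 2454. This corresponded to 25.03, 61.7 and 52.8 CPM in NT and to 47.8, 73.2 and 60.8 in OXA. NT library 1 was lowest, OXA library 1 lay below both remaining NT libraries, and the groups overlapped. The means were 46.5 ± 19.1 and 60.6 ± 12.7 CPM (log2 fold change 0.38 ± 0.31 SE, with a 95% interval of -0.34 to 1.11 and an adjusted p of 0.540 by edgeR). CSK varied more than any other member that passed the filter, its highest library being 2.92 times its lowest. OXA was higher in 3 of 3 same-numbered pairs, by 0.93, 0.25 and 0.20 on the log2 scale. The block alone gave no call (log2 fold change 0.45, edgeR adjusted p = 0.0778). The block with GC and length trends removed did (log2 difference 0.24, edgeR adjusted p = 0.00233), with SRC as the only other member called. That fit called 45.4% of all genes tested. Without NT library 1 the log2 fold change was 0.083 (edgeR adjusted p = 0.80), and in that library CSK deviated by -1.02 from its own mean, beside a median of -0.73 for the 684 genes in the bin around 63.1% GC.

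**Figure D2:**
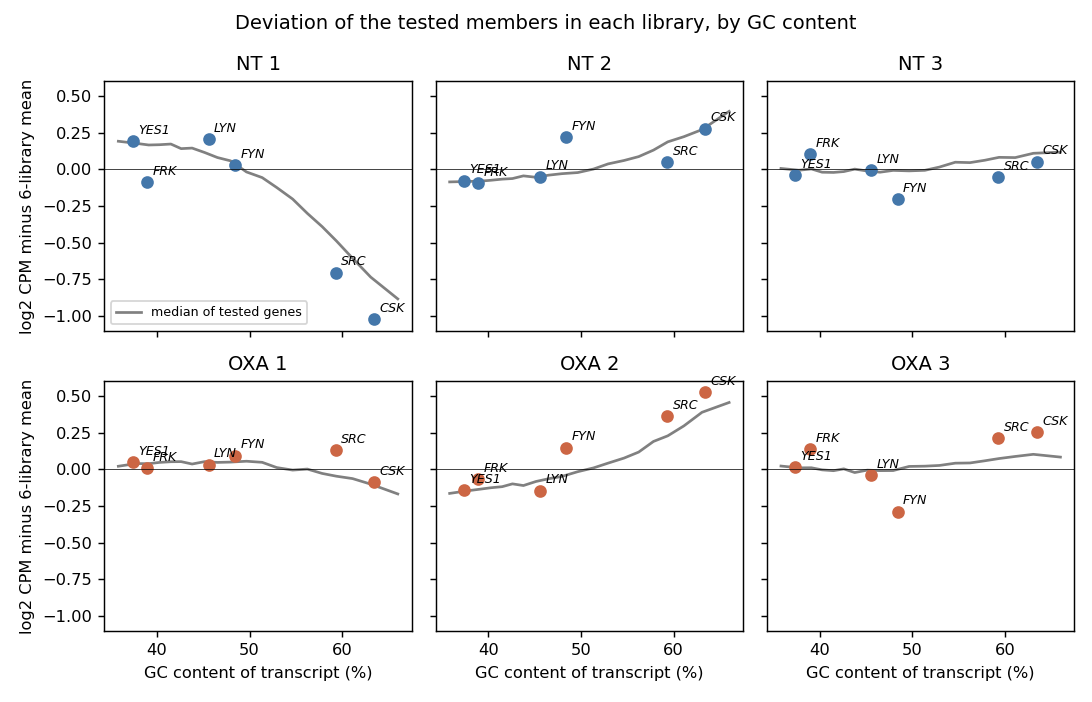
Deviation of log2 CPM from the 6-library mean (y axis) against the GC content of the canonical transcript in percent (x axis), in 1 panel per library, for the 6 members (points) and for the median of 20 bins of tested genes (grey line). In NT library 1 the line falls toward GC-rich transcripts, and SRC (-0.70) and CSK (-1.02) lie below it, where it stands at -0.49 and -0.73.

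YES1 (ENSG00000176105, chromosome 18 of GRCh38 from 721588 to 812546), the close relative of SRC for which the YES-associated protein YAP is named, had 8233, 6728 and 7863 raw counts without the drug, and its OXA counts were 7064, 6126 and 8354. In CPM it stood at 234, 194 and 199 in NT and at 212, 186 and 207 in OXA. The highest value came from NT library 1 and the lowest from OXA library 2. The log2 fold change was -0.053 ± 0.10 SE (95% interval -0.30 to 0.19, adjusted p of 0.817 by edgeR), so a rise or a fall by more than 1.5-fold lay outside the interval. Its sign changed without NT library 1 (0.035) and without OXA library 2 (0.0036).

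LYN (ENSG00000254087), best known from B cells and myeloid cells and also present in epithelial tumors, was well expressed in these cells. It had 87.4, 73.1 and 75.3 CPM in NT and 77.4, 68.5 and 73.6 in OXA. NT library 1 was highest, as for YES1, and the groups overlapped. The log2 fold change was -0.10 ± 0.10 SE (95% interval -0.34 to 0.13, adjusted p of 0.613 by edgeR), and LYN was lower in OXA in 3 of 3 same-numbered pairs, with log2 differences of -0.18, -0.095 and -0.033.

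FYN (ENSG00000010810, chromosome 6 of GRCh38 from 111660332 to 111873452), the third broadly expressed member beside SRC and YES1, had 18.8, 21.5 and 16.0 CPM in NT and 19.7, 20.4 and 15.1 in OXA. Its values followed the library number, with libraries 2 highest and libraries 3 lowest in both groups. The means were 18.7 ± 2.74 and 18.4 ± 2.89 CPM (log2 fold change -0.028 ± 0.16 SE, with a 95% interval of -0.41 to 0.35 and an adjusted p of 0.943 by edgeR). FRK (ENSG00000111816, chromosome 6 of GRCh38 from 115931149 to 116060891), an epithelial relative of the family, had 10.3, 10.2 and 11.7 CPM in NT and 11.0, 10.4 and 12.03 in OXA. The groups overlapped, and libraries 3 were highest in both. Its log2 fold change was 0.054 ± 0.13 SE (95% interval -0.25 to 0.35, adjusted p of 0.852 by edgeR). The sign of FYN turned without NT library 2 (0.048) or OXA library 3 (0.067), and so did that of FRK (-0.010 and -0.036).

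**Figure D3:**
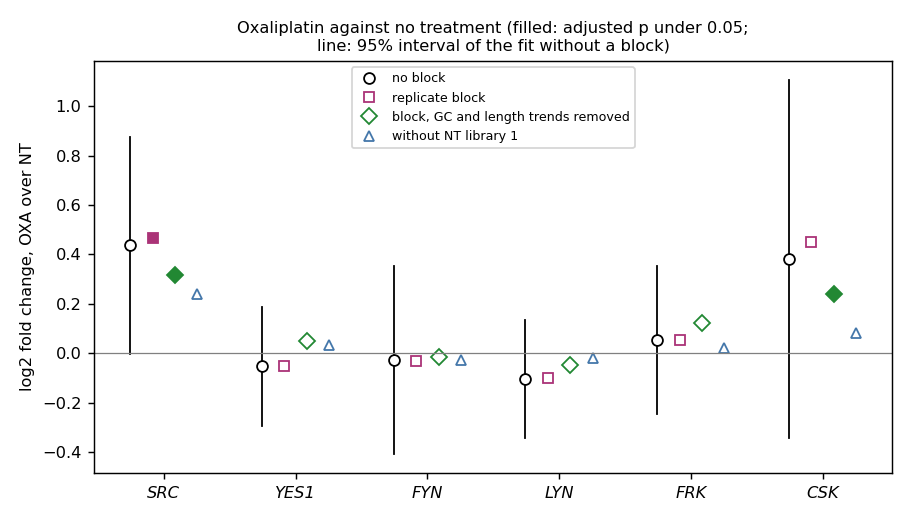
Log2 fold change of OXA over NT (y axis) for the 6 members that passed the filter, in the fit without a block (black circles, with 95% intervals), with the replicate block (squares), with the block and GC and length trends removed (diamonds) and without NT library 1 (triangles). Filled symbols mark an adjusted p under 0.05, which SRC reaches with the block (0.47) and SRC and CSK reach with the trends removed (0.32 and 0.24).

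The 3 remaining kinases belong mainly to blood cells and were too low to test. LCK, the T cell kinase of this family, had 3, 9 and 7 raw counts without the drug and 8, 5 and 5 with oxaliplatin, which is 0.085 to 0.26 CPM. The groups overlapped and library 1 was lowest in NT and highest in OXA. BLK, known from B cells, had 1 count, in OXA library 2. FGR, known from myeloid cells, had 0 counts in all 6 libraries, which at a limit of 3 counts allows up to 0.0743 to 0.0909 CPM per library. This limit covers counting error only, since duplicate reads could not be told from separate molecules.

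Levels of different genes were compared per kilobase of the longest GENCODE transcript, as CPM per kilobase. YES1 was highest in all 6 libraries, between 40.0 and 50.4, and made up 39.7% to 57.3% of the summed level of the 9 genes. CSK followed with 9.12 to 26.7, then LYN with 11.7 to 14.9 and SRC with 7.56 to 15.8, and these 3 ranges overlapped. FYN stood at 4.16 to 5.92 and FRK at 0.765 to 0.901, each below the gene before it in every library. In NT library 1 the level of SRC was 0.507 times that of LYN, and in NT libraries 2 and 3 it was 1.02 and 0.925 times. In the OXA libraries it was 1.02, 1.36 and 1.14 times. The ratio of CSK to SRC, the regulator over its best known target, was 1.21, 1.76 and 1.62 in NT and 1.296, 1.69 and 1.55 in OXA, and here the groups overlapped and the libraries numbered 1 were lowest in both. The summed level of the 8 kinases without CSK was 73.0 to 78.9 in NT and 74.0 to 78.8 in OXA.

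The order depended on the length used. The coding sequence is near equal in length in the SRC family kinases, at 1518 to 1632 bases, and shorter in CSK, at 1353. Per kilobase of coding sequence, the means over the 6 libraries were 126 for YES1, 49.3 for LYN, 39.6 for CSK, 37.6 for SRC, 11.5 for FYN and 7.21 for FRK. Per kilobase of the median transcript, CSK came first with 67.4, since many of its annotated transcripts are short, the median being 794.5 bases against 2743 for the longest. YES1 followed with 45.1, and the means of SRC, LYN and FYN were 27.6, 23.8 and 23.3. FRK has 1 annotated transcript, of 13363 bases, most of it outside the coding sequence.

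**Figure D4:**
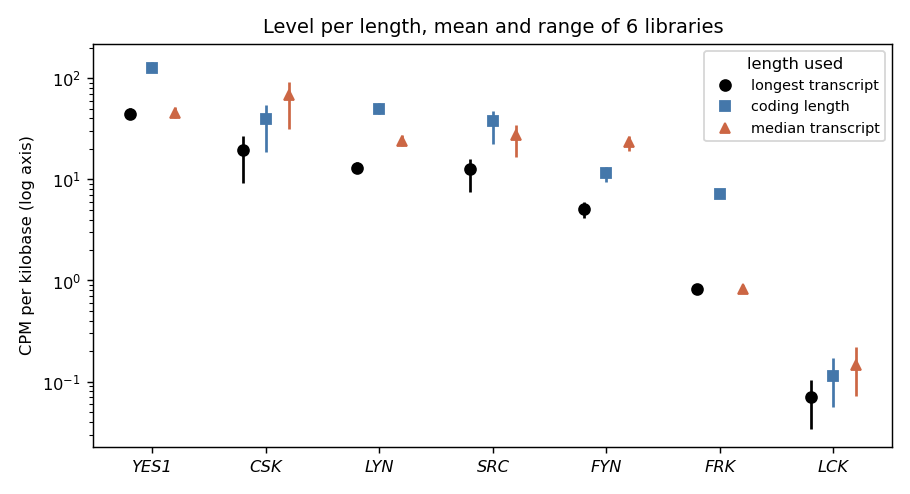
Level per kilobase (y axis, log scale, in CPM per kilobase) of 7 genes, as the mean (symbol) and range (line) of the 6 libraries, with the longest transcript (circles), the coding length (squares) or the median transcript (triangles) as the length. YES1 leads with 44.3 and 126 by the first pair of lengths, and CSK with 67.4 by the third.

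The genes whose values over the 6 libraries were most like those of SRC were FBXL18, FIS1 and CSRNP1, at a root mean square difference of 0.025 to 0.030 on the log2 scale after each gene was centred on its own mean. For CSK they were AURKAIP1, SLC4A3 and CYHR1, at 0.028 to 0.032. The transcripts of these 6 genes had 58.7% to 66.0% GC, beside 59.3% in SRC and 63.4% in CSK. The search covered the 6864 more variable of the tested genes, with a standard deviation (SD) of at least 0.22 over the 6 libraries. FYN (SD 0.20), LYN and YES1 (0.12 each) and FRK (0.10) varied less than any gene searched, so the genes found for them are the nearest in that pool and not among all tested genes, and how near they could lie was limited by the pool. They were TSPYL2, TUBB4A and AC015813.2 for FYN, NPIPA7, LUC7L2 and ZNF776 for YES1, LUC7L2, CDKN3 and GALNT1 for LYN, and LRMDA, WWTR1 and SRXN1 for FRK, at differences of 0.072 to 0.127. Likeness over 6 libraries holds the differences between library numbers as well as those between the groups.

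Genes listed as upstream regulators were compared next, and only part of them act on the phosphate of the tail. Of 22 upstream regulators of the family, 19 were tested, and 3 were higher and 0 lower with oxaliplatin, where 5.07% of all genes tested were called in either direction. Their median log2 fold change was 0.072. PTPRE, a receptor-type phosphatase able to remove the inhibitory phosphate, rose from 15.5 ± 0.867 to 26.7 ± 2.48 CPM (log2 fold change 0.79 ± 0.12 SE, adjusted p of 0.0118 by edgeR). PTPN1, the phosphatase PTP1B, which acts on the same site of SRC, rose from 112 ± 2.29 to 144 ± 8.61 CPM (log2 fold change 0.37 ± 0.082 SE, adjusted p of 0.0474 by edgeR). CAV1, caveolin-1, a membrane scaffold that binds SRC family kinases and is phosphorylated by them, rose from 284 ± 19.9 to 457 ± 34.7 CPM (log2 fold change 0.69 ± 0.097 SE, adjusted p of 0.0107 by edgeR). The NT and OXA libraries did not overlap in any of the 3, where 28.9% of all genes tested had no overlap, in either direction. Since the 3 had been picked by adjusted p, this is no separate support. CAV1 lost its call without NT library 3, OXA library 1 or OXA library 3 (edgeR adjusted p 0.0575 to 0.0724), and PTPRE without NT library 2 or 3 or OXA library 1 or 2 (0.0555 to 0.0797). PTPRE also lost its call with the normalization factors of the authors (log2 fold change 1.10, edgeR adjusted p = 0.0735). PTPN1 kept its call only without NT library 1, the other 5 fits giving 0.112 to 0.212.

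PTPRA, the phosphatase best known for activating SRC, differed the other way, with 116 ± 8.56 CPM in NT and 100.3 ± 6.24 with oxaliplatin (log2 fold change -0.21 ± 0.094 SE, adjusted p of 0.250 by edgeR). PAG1, the membrane adaptor that brings CSK to its targets, had 7.93 ± 0.515 and 6.18 ± 1.07 CPM (log2 fold change -0.36, edgeR adjusted p = 0.271), and its groups did not overlap. The CSK homolog MATK had 0 counts in all libraries. With the replicate block, which called 23.0% of all genes tested, 4 of the 19 regulators were higher and 2 lower, PTPRA among the latter (edgeR adjusted p = 0.0333). The block also called CDCP1, a membrane substrate and docking site of SRC, as higher (log2 fold change 0.28, edgeR adjusted p = 0.0187) and the phosphatase PTPRJ as lower (log2 fold change -0.24, edgeR adjusted p = 0.0275), both named here after their values were seen.

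Of 35 substrates and effectors of the family, 33 were tested, and 1 was higher and 0 lower, a share near the 5.07% of all genes tested. This was EZR, encoding ezrin, a linker of membrane and actin, at 1462 ± 121 CPM in NT and 2346 ± 83.0 with oxaliplatin (log2 fold change 0.68 ± 0.094 SE, adjusted p of 0.00987 by edgeR). EZR lost its call without NT library 3 or without any 1 of the OXA libraries (edgeR adjusted p 0.0518 to 0.0632). The median log2 fold change of the 33 was 0.010. PTK2, the focal adhesion kinase that recruits SRC, had 238 ± 14.3 and 239.5 ± 12.2 CPM (log2 fold change 0.011, edgeR adjusted p = 0.960). PXN, paxillin, which the complex phosphorylates at focal adhesions, had 277 ± 43.4 and 370.0 ± 17.4 CPM in groups that did not overlap (log2 fold change 0.42, edgeR adjusted p = 0.1004), and DESeq2 called it (adjusted p = 0.033). BCAR1, the p130Cas scaffold, differed by 0.62 ± 0.36 SE on the log2 scale (adjusted p of 0.380 by edgeR), at 65.5% GC. Its log2 difference was 0.28 without NT library 1 and 0.92 without NT library 2, and with GC and length trends removed it was called, at 0.51 (edgeR adjusted p = 0.0118). For the Hippo effectors that SRC and YES1 phosphorylate, the values were 0.053 for YAP1 (edgeR adjusted p = 0.837) and 0.27 for WWTR1, which encodes TAZ (edgeR adjusted p = 0.30). With the block and GC and length trends removed, both were called higher. YAP1 stood at 0.12 (edgeR adjusted p = 0.0143) and WWTR1 at 0.35 (edgeR adjusted p = 0.000243), and this fit called 45.4% of all genes tested.

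With the replicate block, 8 of the 33 substrates were higher and 2 lower, where 23.0% of all genes tested were called. EZR, PXN (edgeR adjusted p = 0.0135) and WWTR1 (edgeR adjusted p = 0.0186) were among those that were higher. The others, named after their values were seen, were PTK2B, SHC1, STAT3, TRIP6 and VCL, and GAB1 and SH3PXD2B were the lower ones. Among these, the LIM-domain adhesion protein gene TRIP6 differed most, at 30.8 ± 11.5 CPM in NT and 60.7 ± 11.5 with oxaliplatin (log2 fold change 1.03 with the block, edgeR adjusted p = 0.00684). TRIP6 has 62.9% GC and, like SRC and CSK, was lowest in NT library 1, with 616 raw counts against 1307 and 1462 in the other NT libraries.

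Of 20 other cytoplasmic tyrosine kinases, 15 were tested. Without the block 0 were called by edgeR, DESeq2 or limma-voom, where edgeR called 5.07% of all genes tested, and 1 had an unadjusted p under 0.05 by edgeR, as did 2980 of the 13727 genes. With the block in edgeR 0 were called, where 23.0% of all genes were. Their median log2 fold change was 0.082. PTK6, an intestinal relative of FRK, had 50, 88 and 100 raw counts without the drug and 80, 131 and 121 with oxaliplatin, and its groups overlapped (log2 fold change 0.53 ± 0.29 SE, adjusted p of 0.352 by edgeR). ABL1, which also phosphorylates YAP, differed by 0.025 on the log2 scale (adjusted p of 0.941 by edgeR).

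**Figure D5:**
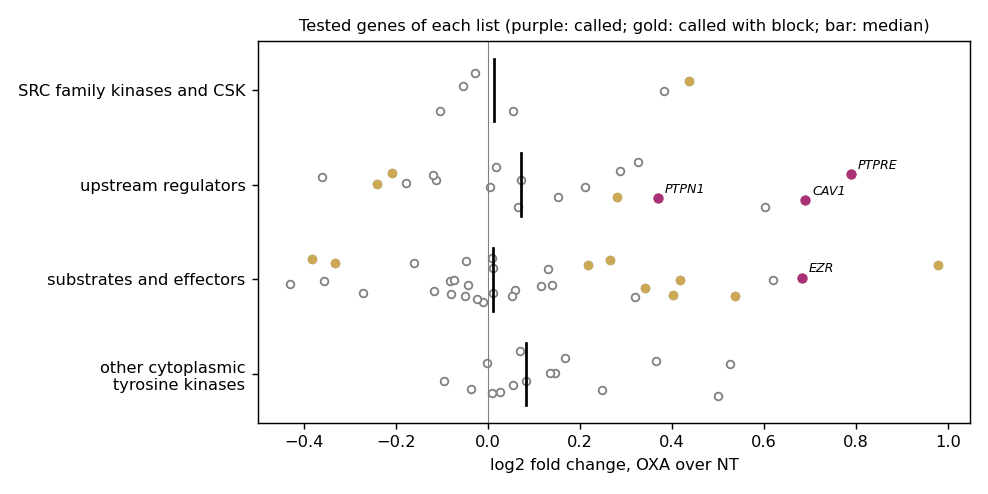
Log2 fold change of OXA over NT (x axis) of each tested gene of 4 lists, 6 members, 19 upstream regulators, 33 substrates and effectors and 15 other cytoplasmic tyrosine kinases, with the median as a bar. Purple marks the 4 genes with an adjusted p under 0.05, PTPRE, CAV1, PTPN1 and EZR, and gold those called only with the replicate block.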

How the data were processed

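Total RNA of HCT116 cells was made into stranded libraries of polyadenylated RNA and sequenced as pairs of 100-base reads. Per the labels and the study's methods, the authors mapped reads to GRCh38 with STAR 2.7.5b, and Trimmomatic 0.32, RSEM 1.3.3 and DESeq2 2.13 are listed too. The program, annotation and strand setting for counting are not given in the sources used here. The authors deposited a raw count per gene and library, in whole numbers that may be rounded estimates, and a normalized signal, the count times a factor that differs between genes. That signal served only in an alternative. Counts were filtered with filterByExpr (minimum count 10, total 15), scaled by TMM and tested in R 4.3.3 with the quasi-likelihood test of edgeR 4.0.16. P-values were adjusted by Benjamini and Hochberg over 13727 genes at a threshold of 0.05, and DESeq2 1.42.0 and limma 3.58.1 served for alternatives. The standard error was the estimate over the square root of F, and CPM used TMM library sizes. The edgeR fits without and with the block were tested on simulated data, which held no GC trend. The fits with GC and length trends removed, DESeq2 and limma-voom were not tested in this way. GENCODE release 44 gave transcripts, GC content and lengths and held 27703 of the 27942 identifiers.

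Samples were grouped by their titles. Replicates differed beyond counting error (chi-square per gene 19.2 to 83.1). Deviations of same-numbered libraries from their group means correlated at 0.55, 0.54 and 0.31, all over the limit of 0.1, and different numbers at -0.47 to 0.090. The numbers, whose meaning the labels do not give, were therefore treated as pairs, but only in the fits with a block. The main fit with its intervals, DESeq2, limma-voom and the fits without 1 library left the pairing out. The members and lists were chosen with earlier results of these data known. Named are all members, the listed genes past the threshold, 10 listed genes chosen for their roles, and for each tested member the 3 genes nearest in centred log2 CPM among the tested genes whose SD was at or above the median. Alternatives were other factors, filters and tests, the block, and each library left out. GC and length trends (splines with 5 degrees of freedom) and the authors' factors were added after seeing the data.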

Additional observations from a re-analysis of the deposited data

How the results depend on the processing

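Of the 6 members tested, none was called by edgeR without a block under any other scaling or filter, by DESeq2, by limma-voom, with the authors' factors or without any 1 library (0 to 0). The replicate block called 1 (SRC), the removal of GC and length trends 1 (SRC), and both together 2 (SRC and CSK). These settings also raised the calls over all genes. Without the block 381 genes were higher and 315 lower, with the block 1664 and 1493, with the trends removed 1564 and 1504, and with both 3198 and 3037. In this order, these were 5.07%, 23.0%, 22.4% and 45.4% of the 13727 genes tested. DESeq2 gave 636 higher and 635 lower genes, the authors' factors 246 and 205, upper quartile factors 348 and 493, and library totals 350 and 511. Leaving out 1 library gave 66 to 623 higher and 19 to 571 lower genes. Of the regulators, 6 were called with the block, 7 with block and trends, 1 with the authors' factors and 0 to 3 without 1 library, where 3 had been called. Of the substrates, where 1 had been called, 10 were called with the block, 10 with the trends removed, 20 with both, 6 by DESeq2, 2 each with upper quartile factors, library totals and the authors' factors, and 0 to 4 without 1 library. Of the other cytoplasmic tyrosine kinases, 1 was called with the trends removed and 2 with the block as well, where 0 had been. With 1 library left out, the log2 fold change ranged from 0.24 to 0.55 for SRC and from 0.083 to 0.61 for CSK. The ranges that crossed 0 were -0.14 to 0.035 for YES1, -0.16 to 0.067 for FYN, -0.036 to 0.10 for FRK, -0.058 to 0.13 for YAP1, -0.051 to 0.062 for PTK2 and -0.12 to 0.083 for ABL1, none of them called with 1 library left out. YES1 also turned to 0.050 with the trends removed, with and without the block, and FYN to 0.024 with the authors' factors. PTK2 turned to -0.029 with upper quartile factors, -0.028 with library totals, -0.018 without the filter and -0.093 with the authors' factors. ABL1 turned to -0.012, -0.014 and -0.00039 under the first 3 of these, to -0.11 with the trends removed and to -0.10 with the block and the trends removed. PTPN1, at an edgeR adjusted p of 0.0474, missed the threshold under 11 of 17 alternatives. Apart from the calls given here and in the report, the block changed no call of a member or of a gene of the lists. Levels per kilobase, for which only other lengths were tried, moved to 37.6 and 27.6 for SRC, 49.3 and 23.8 for LYN, 11.5 and 23.3 for FYN, 0.113 and 0.145 for LCK and 39.6 and 67.4 for CSK with the coding and the median length, and to 126 for YES1 and 7.21 for FRK with the coding length. The causes of these changes were not tested. LCK, FGR and BLK were too low for any test at this depth.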
